A study of Mus musculus with 24 samples.

Results

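The genes described here encode the sensors of endoplasmic reticulum (ER) stress outside the PERK arm, their transcription factors and the proteases that activate them. They are Ern1 and Xbp1 of the IRE1 arm, Atf6 and Atf6b of the ATF6 arm, the proteases Mbtps1 and Mbtps2, and the CREB3 relatives Creb3, Creb3l2 and Creb3l1. They were taken by symbol from the table of gene counts, 9 of its 24421 genes, and all 9 passed the filter on low counts. The libraries hold polyadenylated RNA of MIN6, a mouse insulinoma line that makes and secretes insulin. Cells carried either a control plasmid coding for GFP or a plasmid coding for EIF2A-GFP, a fusion of GFP with the translation initiation factor EIF2A. Each construct had vehicle (DMSO, written 0 h) or 1 µM thapsigargin for 1 or 3 h, with 4 libraries in each of 6 groups, called GFP or EIF2A at 0, 1 or 3 h. All 6 groups thus carried a GFP-coding plasmid, and MIN6 is a single tumour line. No vehicle group is labelled 1 or 3 h, so effects of the drug and those of time or handling cannot be told apart. The labels give neither the share of cells that took up a plasmid nor whether libraries of a group are separate cultures, so p-values measure only the spread between these libraries, which may be technical.

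Thapsigargin blocks the calcium pump of the ER, and emptied calcium stores impair folding there. Ern1 encodes IRE1α, an ER membrane protein whose cytosolic part is a kinase and an RNase. The RNase cuts a short segment out of Xbp1 mRNA, and the rejoined mRNA encodes the active factor XBP1s. ATF6 and ATF6B are membrane-bound precursors that move to the Golgi, where the site-1 protease (Mbtps1) and then the site-2 protease (Mbtps2) release their transcription factor domains. CREB3, CREB3L1 and CREB3L2 are held in the membrane and released in the same way. Beta cells load their ER with proinsulin, and these sensors are studied in them for that reason.

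The segment that IRE1α removes is shown because it is the point at which Ern1 acts on Xbp1, and because counts per gene cannot see it. It is 26 bases long and lies in exon 4 of Xbp1 at chr11:5524279-5524304 (GRCm38, plus strand). It is printed 5′ to 3′ from a GENCODE M21 transcript, with the segment in capitals and 20 bases on either side:
Xbp1 segment: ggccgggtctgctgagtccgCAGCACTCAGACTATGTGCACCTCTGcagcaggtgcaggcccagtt
With the segment in place the reading frame of this transcript spans 267 codons, and without it 371 codons. Both forms add to the same gene count, so every Xbp1 value below is the sum of spliced and unspliced mRNA.

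Total counts ran from 10.5 to 22.2 M (mega) per library, being 16.7 to 22.2 M in GFP and 10.5 to 22.1 M in EIF2A. Of the 8 beta cell markers, 8 were tested, and their summed level was 43424 to 120613 counts-per-million (CPM). It was lower at 3 h than at 0 h without overlap, at 43424 to 63371 against 81186 to 105323 CPM in GFP and 55023 to 65454 against 91410 to 111265 in EIF2A, and the part of this in the results at 3 h was not tested. The alpha cell list summed to 139 to 921 CPM, nearly all of it Gcg. Delta (0.0969 to 1.19 CPM), acinar (0.152 to 1.15, with Prss2 at 0), mesenchymal (0.769 to 6.38), endothelial (0.0717 to 1.54) and macrophage (0.490 to 14.2) lists were low, and their part in the results was not tested. Eif2a, the plasmid's gene, went against the labels in replicate 1. Its levels at 0 h were 269.4, 79.0, 77.8 and 78.7 CPM in GFP replicates 1 to 4 and 80.3, 141.4, 142.3 and 134.0 in EIF2A, and the order was the same at 1 and 3 h. "EIF2A" and "GFP" therefore stand below for the libraries labelled so, and for the 9 genes the comparisons between them are given with and without replicate 1.

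Levels are compared between genes per kilobase of exonic length. This length counts every annotated exon of a gene, so it can exceed that of the mRNA made in these cells. For Xbp1 it is 3248 bases, where the transcript shown above has 2129. The order between genes is therefore approximate. In GFP at 0 h Xbp1 was the most abundant, at 73.3 ± 7.45 CPM per kilobase (SD, n = 4). Atf6b followed with 40.3 ± 5.15 and Creb3 with 34.7 ± 1.45, and the libraries of these last genes overlapped. Mbtps1 stood at 17.6 ± 2.16 and Atf6 at 8.33 ± 0.573, each apart from its neighbours. Ern1 (4.89 ± 1.44), Mbtps2 (2.56 ± 0.300), Creb3l2 (2.52 ± 1.02) and Creb3l1 (0.956 ± 0.889) came last, each overlapping the next. In replicates 2 to 4 of EIF2A at 0 h, Ern1 was instead last, at 1.13 ± 0.141 CPM per kilobase (SD, n = 3), level with Creb3l1 at 1.13 ± 0.235. Creb3l1 rests on 18 to 105 counts per library, so its values are the least precise.

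**Figure D1:**
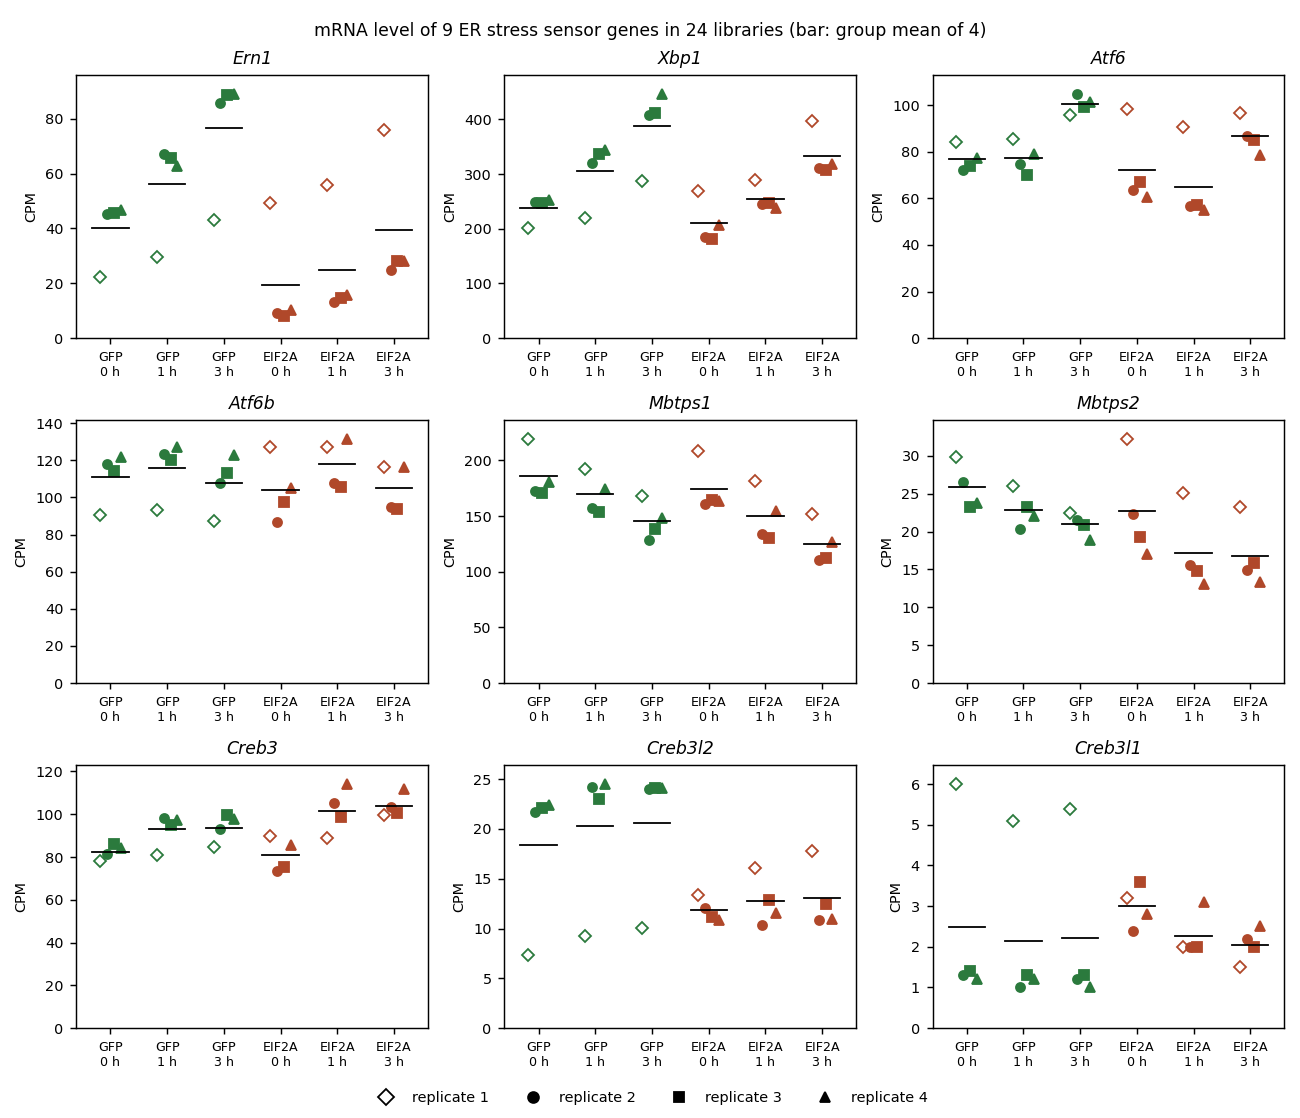
Level of each gene in CPM on a linear axis from 0, with 1 point per library, bars at the mean of 4 libraries and open diamonds for replicate 1. Ern1 and Xbp1 step up from 0 to 3 h in both constructs, and in Ern1, Creb3l2 and Creb3l1 replicate 1 lies apart from the other 3 GFP libraries.

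Each time point was set against vehicle within a construct, to ask how the mRNAs of the sensors answered thapsigargin. By edgeR's quasi-likelihood test with Benjamini-Hochberg adjustment over 13761 genes, 0 of the 9 genes passed in GFP at 1 h against 0 h, where 8.18% of all genes did. At an unadjusted p under 0.05 there was 1, Xbp1, and DESeq2 called 0. In GFP at 3 h, 2 rose (Xbp1, Atf6) and 1 fell (Mbtps1), against 33.0% of all genes called. In EIF2A at 1 h only Creb3 rose, against 10.5%, and at 3 h Xbp1 and Creb3 rose and Mbtps1 fell, against 36.2%. The median log2 fold change of the 9 genes was 0.16 in GFP and 0.13 in EIF2A at 3 h, and that of all genes -0.0024 and -0.010. None of the 9 passed between 3 h and 1 h, where 9.77% of genes did in GFP and 14.9% in EIF2A. There, 2 of the 9 had an unadjusted p under 0.05 in each construct, and DESeq2 called 0 in GFP and 1 (Atf6) in EIF2A.

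With replicate 1 included, libraries of a construct with the same replicate number deviated together, and less so in replicates 2 to 4 alone. A fit with a baseline for each construct and replicate number (the blocked fit) called more. It called 5 of 9 in GFP at 1 h (3 rose, 2 fell; 44.6% of all genes) and 7 of 9 at 3 h (5 rose, 2 fell; 67.1%). In EIF2A it called 7 of 9 at 1 h (4 rose, 3 fell; 45.3%) and 7 of 9 at 3 h (4 rose, 3 fell; 66.2%). Between 3 h and 1 h it called 4 of 9 in GFP (49.7% of all genes) and 5 of 9 in EIF2A (52.7%). With shares of all genes this high, a count of called members says little, and the size and direction of single genes are described next. A "series" below is the 0, 1 and 3 h library of 1 construct and replicate number, 8 in all.

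Ern1 was higher after thapsigargin in all 8 series at 1 h and again at 3 h. In GFP it stood at 22.3, 45.1, 45.8 and 46.7 CPM at 0 h, 29.7, 67.3, 65.5 and 62.7 at 1 h and 43.2, 85.7, 88.6 and 89.0 at 3 h in replicates 1 to 4. In EIF2A the values were 49.2, 9.3, 8.0 and 10.3 CPM at 0 h, 56.0, 13.3, 14.5 and 15.9 at 1 h and 76.0, 24.7, 28.2 and 28.1 at 3 h. The groups overlap because replicate 1 is low in GFP and high in EIF2A, while replicates 2 to 4 do not overlap between times in either construct. The log2 fold change at 3 h was 0.94 ± 0.55 (SE) in GFP and 1.01 ± 0.56 in EIF2A (adjusted p = 0.208 and 0.172). In the blocked fit Ern1 rose, by 0.94 ± 0.09 and 1.17 ± 0.11 (adjusted p = 5.73e-09 and 4.95e-09). At 1 h the blocked values were 0.49 ± 0.09 and 0.42 ± 0.12 (1.99e-04 and 0.00591), where the fit without a block gave 0.732 and 0.798. Without EIF2A replicate 1 at 0 h alone, the EIF2A value at 3 h was 2.09 ± 0.53 (adjusted p = 0.00354).

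Xbp1, the factor that IRE1α activates, also climbed at each step in all 8 series. In GFP its levels in replicates 1 to 4 were 201.9, 248.9, 247.9 and 253.2 CPM at 0 h, 220.3, 320.9, 337.4 and 343.4 at 1 h and 286.9, 408.0, 411.3 and 446.3 at 3 h. In EIF2A they were 268.8, 184.9, 181.6 and 206.7 CPM, then 289.0, 245.3, 247.4 and 237.3, then 396.6, 310.7, 307.2 and 319.2. The 3 h libraries of either construct were all above its 0 h libraries. Xbp1 rose at 3 h by 0.71 ± 0.15 on the log2 scale in GFP and 0.66 ± 0.15 in EIF2A (edgeR adjusted p = 0.00120 and 0.00186). At 1 h its change was 0.36 ± 0.15 and 0.28 ± 0.15 (adjusted p = 0.180 and 0.300), and in the blocked fit it rose by 0.34 ± 0.05 and 0.29 ± 0.06 (9.90e-06 and 1.15e-04). Without GFP replicate 1 at 1 h, the library lowest in its group, the GFP change at 1 h was 0.49 with adjusted p = 0.0380. From 1 to 3 h the blocked values were 0.35 ± 0.05 in GFP and 0.38 ± 0.05 in EIF2A (6.03e-06 and 1.25e-06), and without GFP replicate 1 at 3 h the unblocked GFP value was 0.46 (adjusted p = 0.0435).

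Atf6 had another time course, level or lower at 1 h and higher by 3 h in 7 of 8 series, EIF2A replicate 1 being the exception. In GFP it was at 84.2, 72.4, 73.7 and 77.4 CPM at 0 h, 85.7, 74.6, 70.1 and 79.0 at 1 h and 95.7, 104.8, 99.3 and 101.5 at 3 h. In EIF2A it was at 98.3, 63.4, 67.0 and 60.8 CPM at 0 h, 90.5, 56.9, 57.1 and 55.1 at 1 h and 96.7, 86.8, 84.9 and 78.7 at 3 h. All 4 EIF2A libraries and 1 of the GFP libraries were lower at 1 h than at 0 h, and all 8 series were higher at 3 h than at 1 h. At 1 h the log2 change was 0.01 ± 0.15 in GFP and -0.16 ± 0.15 in EIF2A (adjusted p = 0.990 and 0.605; blocked 0.932 and 0.0686). Without replicate 1 the EIF2A value was -0.18 ± 0.06 (adjusted p = 0.0212), and without EIF2A replicate 1 at 1 h alone -0.36 (0.0459).

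By 3 h Atf6 rose in GFP by 0.38 ± 0.15 (adjusted p = 0.0485), a call close to the threshold. It was lost on leaving out any single library of the 2 groups other than GFP replicate 1 at 0 h (adjusted p from 0.0558 to 0.109). It was also lost without replicate 2, 3 or 4 of all groups (0.262, 0.222 and 0.156). The EIF2A change was 0.26 ± 0.15 (adjusted p = 0.181) and 0.44 (0.0116) without EIF2A replicate 1 at 0 h, the highest of its group. In the blocked fit Atf6 rose at 3 h by 0.39 ± 0.07 in GFP and 0.28 ± 0.07 in EIF2A (8.80e-06 and 7.36e-04). From 1 to 3 h it rose there by 0.38 ± 0.07 and 0.44 ± 0.07 (2.91e-05 and 5.36e-06), and without EIF2A replicate 1 at 1 h the unblocked EIF2A value was 0.62 (adjusted p = 0.00177). DESeq2 gave Atf6 in GFP at 3 h an adjusted p of 0.0536, and edgeR with RLE size factors 0.0692. When libraries were scaled by their totals alone, edgeR called Atf6 at 3 h in both constructs, at 0.50 in GFP and 0.41 in EIF2A (adjusted p = 0.0175 and 0.0475).

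Atf6b, the close relative of Atf6, changed little. In GFP its lowest and highest libraries were 90.3 and 121.7 CPM at 0 h, 93.3 and 127.2 at 1 h, and 87.5 and 122.6 at 3 h. In EIF2A they were 86.7 and 127.1 CPM, then 105.4 and 131.4, then 93.6 and 116.4. At 3 h the blocked log2 change was -0.04 ± 0.05 in GFP, with a 95% interval of -0.15 to 0.06, and 0.02 in EIF2A (adjusted p = 0.446 and 0.800). The sign in GFP turned to 0.07 when libraries were scaled by their totals alone. In the blocked fit Atf6b rose in EIF2A at 1 h by 0.18 ± 0.05 (adjusted p = 0.00450; 0.484 unblocked) and fell from 1 to 3 h by 0.17 ± 0.05 (0.00670). It was lower at 3 h than at 1 h in 8 of 8 series.

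**Figure D2:**
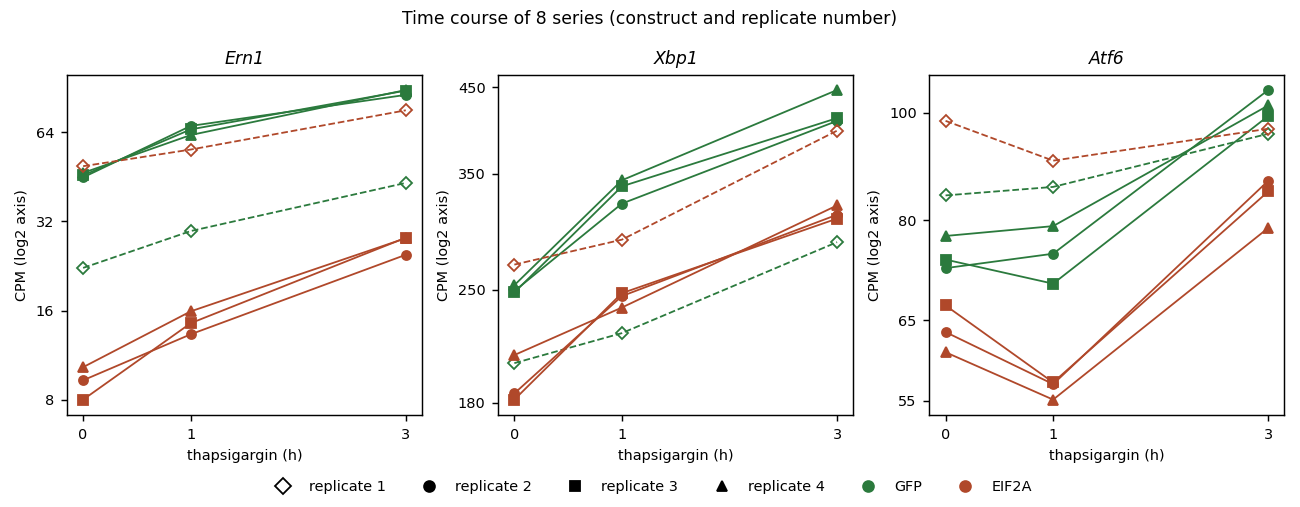
CPM on a log2 axis against hours of thapsigargin for Ern1, Xbp1 and Atf6, with 1 line per construct and replicate number and dashed lines for replicate 1. All lines of Ern1 and Xbp1 climb at each step, whereas 5 of 8 lines of Atf6 dip at 1 h and all 8 climb from 1 to 3 h.

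By 3 h the mRNAs of both proteases were lower in 8 of 8 series, while that of their substrate Atf6 was higher in 7 of 8. At 1 h Atf6 was level or lower, and Atf6b, the other ATF6 substrate, changed little. Mbtps1, the site-1 protease, stood at 219.2, 172.2, 170.9 and 180.5 CPM in GFP at 0 h, 192.4, 157.2, 154.1 and 174.5 at 1 h and 168.0, 128.7, 138.7 and 147.9 at 3 h. In EIF2A it went from 208.8, 161.1, 164.4 and 163.5 CPM through 181.8, 134.0, 130.5 and 154.7 to 151.6, 110.4, 112.2 and 126.5. It was lower at each step in all 8 series, and the 3 h libraries lay below all 0 h libraries in both constructs. Mbtps1 fell at 3 h by 0.35 ± 0.13 on the log2 scale in GFP and by 0.48 ± 0.13 in EIF2A (edgeR adjusted p = 0.0410 and 0.00567), and the blocked fit gave -0.13 ± 0.04 and -0.22 ± 0.05 at 1 h (0.0198 and 0.000292).

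The GFP call at 3 h was lost without GFP replicate 1 at 0 h (-0.26, adjusted p = 0.147), without replicate 4 at 0 h (0.0612) and without replicate 2, 3 or 4 at 3 h (0.128, 0.0990 and 0.0696). It was also lost without replicate 2, 3 or 4 of all groups (0.177, 0.140 and 0.152). Scaling by library totals alone, which moved the median of all genes at 3 h to 0.12 in GFP and 0.15 in EIF2A, gave Mbtps1 -0.23 and -0.33 (adjusted p = 0.173 and 0.0460). Relative to those medians it was still lower. From 1 to 3 h the blocked values of Mbtps1 were -0.22 ± 0.05 in GFP and -0.26 ± 0.05 in EIF2A (2.22e-04 and 2.48e-05), and without EIF2A replicate 1 at 3 h the unblocked EIF2A value was -0.37 (0.0489). The EIF2A call at 3 h was lost without replicate 2 or 3 of all groups (0.0508 and 0.0574).

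Mbtps2, the site-2 protease, is 10105 exonic bases long and less abundant. Its GFP libraries held 29.9, 26.6, 23.3 and 23.8 CPM at 0 h, 26.0, 20.3, 23.2 and 22.0 at 1 h and 22.5, 21.5, 20.9 and 18.9 at 3 h. Its EIF2A libraries held 32.2, 22.3, 19.3 and 17.1 CPM, then 25.1, 15.6, 14.8 and 13.1, then 23.2, 14.9, 15.8 and 13.4. All 8 series were lower at 3 h than at 0 h, by 0.15 to 0.58 on the log2 scale, although groups overlapped in EIF2A. The change at 3 h was -0.30 ± 0.20 in GFP and -0.44 ± 0.20 in EIF2A (adjusted p = 0.271 and 0.0989), and in the blocked fit Mbtps2 fell by 0.30 ± 0.07 and 0.43 ± 0.08 (2.75e-04 and 1.04e-05). Scaling by library totals alone, without the block, gave -0.18 and -0.29 at 3 h (edgeR adjusted p = 0.558 and 0.312). At 1 h the blocked fit gave -0.17 ± 0.07 and -0.41 ± 0.08 (0.0355 and 6.72e-05). Without EIF2A replicate 1 at 1 h or at 3 h, the unblocked EIF2A changes were -0.66 and -0.64 (adjusted p = 0.0204 and 0.0165). Exons of Mbtps2 share 2867 bases, 28.4% of its length, with Yy2 on the same strand, so reads there can be assigned to neither or either gene.

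Creb3, also called Luman, rose modestly. Its GFP libraries were at 78.2, 81.2, 85.9 and 84.4 CPM at 0 h, 81.0, 98.2, 95.1 and 97.2 at 1 h and 84.7, 92.9, 99.5 and 97.6 at 3 h. In EIF2A they were at 89.8, 73.7, 75.2 and 85.5 CPM, then 89.0, 105.1, 98.7 and 114.1, then 99.6, 103.5, 100.7 and 112.0. The EIF2A libraries at 3 h lay above all those at 0 h, and most of the step was present at 1 h. Creb3 rose in EIF2A by 0.33 ± 0.09 at 1 h and 0.36 ± 0.09 at 3 h (edgeR adjusted p = 0.0174 and 0.00236). The call at 1 h was lost without replicate 2 or 3 of EIF2A at 0 h (0.0688 and 0.0645) and without replicate 2 or 4 at 1 h (0.0558 and 0.0698). It was also lost without replicate 2, 3 or 4 of all groups (0.325, 0.258 and 0.149) and when only the groups compared were fitted. The call at 3 h was lost without replicate 2 of all groups (0.0629). In GFP the changes were 0.17 ± 0.09 and 0.19 ± 0.09 (adjusted p = 0.269 and 0.104), and the blocked fit called both, at 0.17 ± 0.06 and 0.18 ± 0.06 (0.0177 and 0.00652). Scaling by library totals alone, which raised the median of all genes at 3 h, gave 0.30 in GFP and 0.52 in EIF2A there (edgeR adjusted p = 0.0163 and 1.87e-04). Creb3 shares 360 exonic bases with Tln1 and 133 with Gba2 on the opposite strand, 15.2% and 5.6% of its length. The kit keeps strand, but the strand setting of the counting is not given in the sources used here.

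Creb3l2 and Creb3l1, relatives known for roles in secretory cells, showed small or uncertain changes with time. Creb3l2 was at 21.7 to 24.5 CPM in replicates 2 to 4 of GFP at all 3 times and at 7.3, 9.3 and 10.1 in replicate 1, and in EIF2A it ranged from 10.4 to 17.8 CPM. Its change at 3 h was 0.16 ± 0.33 in GFP (adjusted p = 0.760). The blocked fit gave 0.18 ± 0.08 (0.0422), and 0.12 without replicate 1 and without the block (0.123). Creb3l1 ran from 1.0 to 6.0 CPM in GFP and from 1.5 to 3.6 in EIF2A, and was lower at 3 h than at 0 h in all 8 series. Its change at 3 h was -0.17 ± 0.58 in GFP and -0.56 ± 0.59 in EIF2A (adjusted p = 0.865 and 0.510). In the blocked fit Creb3l1 fell in EIF2A by 0.59 ± 0.18 (0.00508), and without replicate 1 and the block the value was -0.38 (0.107).

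**Figure D3:**
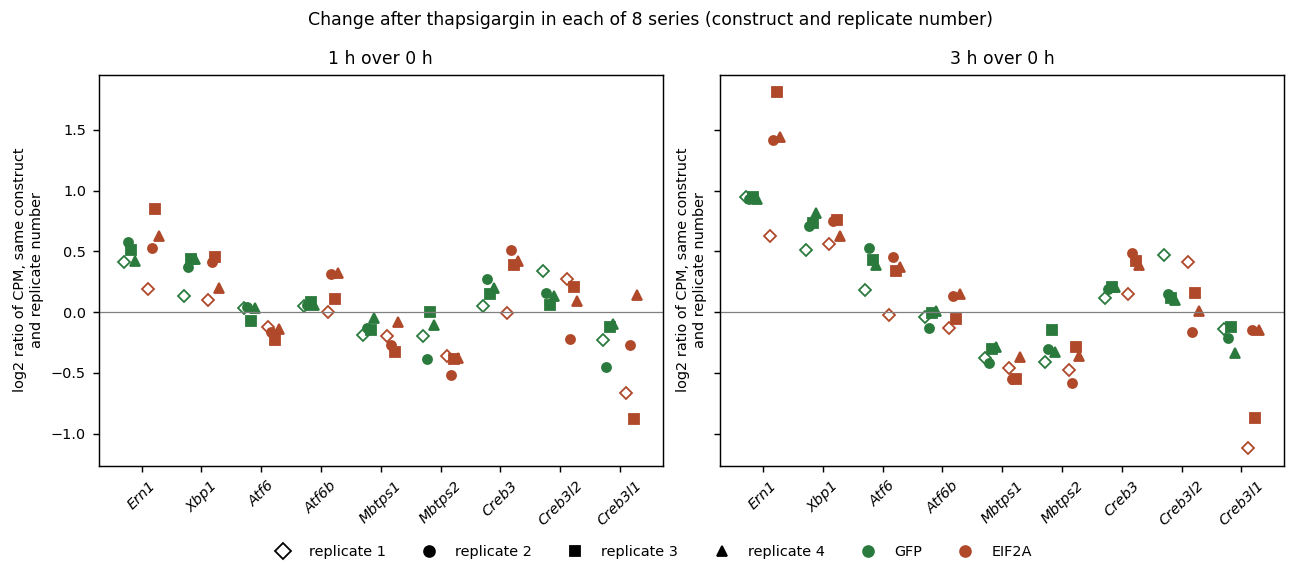
Log2 ratio of CPM at 1 h (left) and 3 h (right) over 0 h of the same construct and replicate number, with 8 points per gene and open diamonds for replicate 1. At 3 h all 8 points of Ern1, Xbp1 and Creb3 lie above 0, all 8 of Mbtps1, Mbtps2 and Creb3l1 lie below it, and those of Atf6b straddle it.

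EIF2A and GFP were compared at each time to ask whether the EIF2A plasmid went with other sensor levels. With all 4 replicates the test called 0 of the 9 genes at 0, 1 and 3 h, where it called 0.0218%, 1.02% and 0% of all genes. At an unadjusted p under 0.05 there were 0, 1 and 0 of the 9, and 3006, 3901 and 2901 of all genes. DESeq2 called 0 of the 9 at each time. For Ern1 the log2 difference was -1.04 ± 0.56 at 0 h (adjusted p = 0.270), with replicate 1 at 1.14 and replicates 2 to 4 at -2.51 to -2.18.

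Without replicate 1 the constructs stood far apart, with 7 of the 9 genes called at each time (1 higher, 6 lower in EIF2A), against 64.8%, 70.0% and 67.6% of all genes. In the same libraries the share of reads on no gene was 13.29 to 17.88% in EIF2A and 10.91 to 12.99% in GFP, and its part in the result was not tested. The chi-square over degrees of freedom between replicates 2 to 4 at 0 h was 1.32 to 1.91 in GFP and 3.10 to 6.77 in EIF2A. It reached 19.1 in EIF2A at 3 h. Pairs with replicate 1 at 0 h gave 65.8 to 71.0 and 74.2 to 75.0. The p-values without replicate 1 measure only the small spread among replicates 2 to 4, which may be technical. In replicates 2 to 4 Ern1 was 4.99-fold higher in GFP than in EIF2A at 0 h, 4.47-fold at 1 h and 3.25-fold at 3 h. Its log2 differences were -2.32 ± 0.08, -2.16 ± 0.07 and -1.70 ± 0.07 (edgeR adjusted p = 2.00e-14, 8.21e-15 and 6.50e-14), and no library of one construct reached the range of the other. In replicate 1, GFP held 22.3 CPM and EIF2A 49.2 at 0 h, the opposite order, as for Eif2a. Leaving out EIF2A replicate 1 alone gave -2.12 at 0 h and -1.95 at 1 h (adjusted p = 0.0137 and 0.0125), and at 3 h -1.50, which was not called.

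Creb3l2 was lower in EIF2A by 0.94 ± 0.08 at 0 h, 1.04 at 1 h and 1.07 at 3 h without replicate 1, with 21.7 to 24.5 CPM in GFP against 10.4 to 12.9 in EIF2A over the 3 times. Creb3l1 was the gene that was higher in EIF2A, by 1.12 ± 0.21, 1.04 ± 0.22 and 0.96 ± 0.22 (adjusted p = 1.44e-04, 3.52e-04 and 6.19e-04), at 2.0 to 3.6 CPM against 1.0 to 1.4. Both of these genes also had the opposite order in replicate 1. Xbp1 differed by -0.39 ± 0.05, -0.46 and -0.43 (3.40e-06, 2.83e-07 and 6.10e-07) and Atf6 by -0.22 ± 0.06, -0.40 and -0.29 (0.00215, 3.87e-06 and 1.34e-04). In replicate 1 Xbp1 was 1.33-, 1.31- and 1.38-fold higher in EIF2A at 0, 1 and 3 h. Atf6 was 1.17-, 1.06- and 1.01-fold higher there, and so nearly equal by 3 h. Mbtps2 differed by -0.32 ± 0.10, -0.60 ± 0.10 and -0.48 (0.00774, 2.66e-05 and 2.49e-04). Atf6b was called at 0 h only (-0.29 ± 0.09, 0.00829), Mbtps1 at 1 h (-0.21, 0.0115) and 3 h (-0.25, 0.00403), and Creb3 at no time (0.164, 0.0677 and 0.0813). At 1 h, without EIF2A replicate 1 alone, Atf6 (-0.46, 0.00886) and Mbtps2 (-0.66, 0.0120) were called as well. In these bulk libraries fewer cells with a given mRNA and less of it per cell cannot be told apart.

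**Figure D4:**
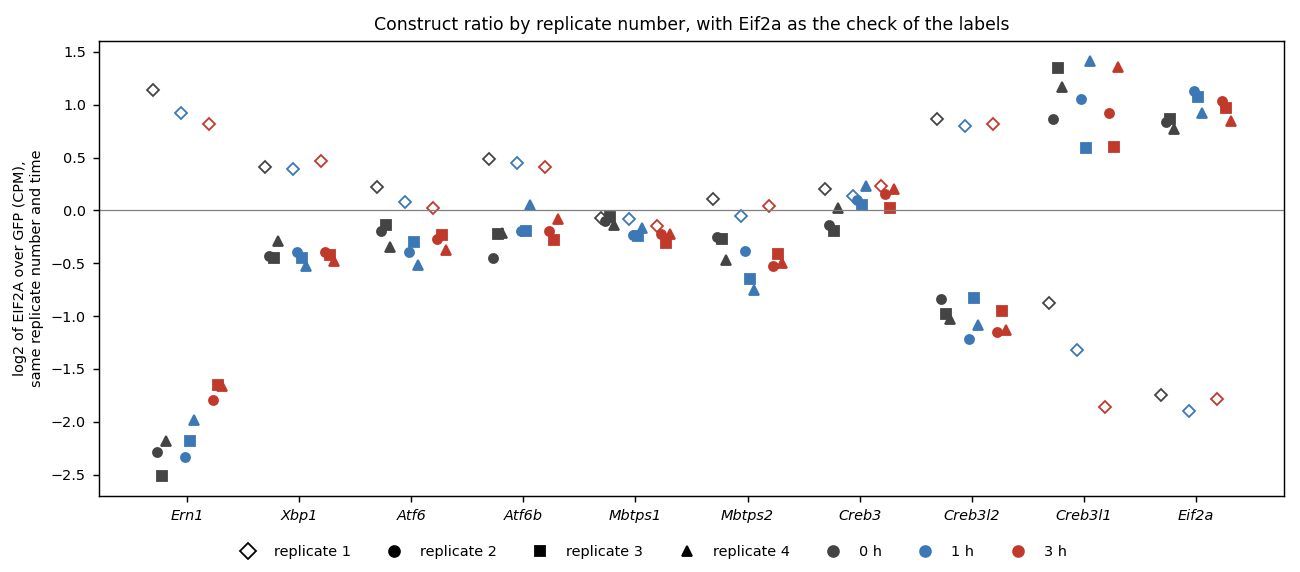
Log2 ratio of CPM, EIF2A over GFP of the same replicate number and time, for the 9 genes and Eif2a, with colours for time and open diamonds for replicate 1. Replicates 2 to 4 of Ern1 lie near -2 and those of Creb3l2 near -1, and for Ern1, Xbp1, Atf6, Creb3l2, Creb3l1 and Eif2a replicate 1 lies on the other side of 0 at all 3 times. For Atf6 replicate 1 is close to 0, at 0.22, 0.08 and 0.02.

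The interaction, in which the response of GFP is subtracted from that of EIF2A, asks whether the plasmid went with another answer to thapsigargin. With all replicates edgeR called 0 of the 9 genes at 1 h and at 3 h, and 0% of all genes, with 0 of the 9 and 72 and 146 of all genes at an unadjusted p under 0.05. DESeq2 also called 0 of the 9. Without replicate 1, 0 of the 9 passed at 1 h (2 unadjusted; 0.816% of all genes) and 1 at 3 h (4.12%), which was Ern1. From 0 to 3 h Ern1 grew 1.94-, 1.90-, 1.93- and 1.90-fold in GFP replicates 1 to 4 and 1.55-, 2.67-, 3.52- and 2.72-fold in EIF2A. The proportional rise was larger in EIF2A in replicates 2 to 4 and smaller in replicate 1. In CPM, however, the gain was 20.9, 40.6, 42.7 and 42.3 in GFP against 26.8, 15.5, 20.2 and 17.7 in EIF2A, so replicates 2 to 4 of EIF2A gained less mRNA from a lower start. The log2 interaction of Ern1 was 0.62 ± 0.11, with a 95% interval of 0.39 to 0.85 (adjusted p = 0.00265), without replicate 1, and 0.07 ± 0.78 with it (blocked 0.23 ± 0.15, 0.592).

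For Xbp1 the interaction at 3 h without replicate 1 was -0.05 ± 0.07, with a 95% interval of -0.20 to 0.11 (adjusted p = 0.817). Both ends of this interval are smaller in size than the Xbp1 response at 3 h in either construct. Creb3 stood at 0.23 ± 0.09 at both times (0.261 and 0.176), and the blocked fit without replicate 1 called it at both (0.0165 and 0.0101).

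Genes that work with the sensors were counted from lists of known function. At 3 h, 33.0% of all genes in GFP and 36.2% in EIF2A were called, or 67.1% and 66.2% in the blocked fit, and the counts of the lists are read against these shares. Of 5 tested IRE1 partners, 2 rose and 2 fell at 3 h in either construct (3 fell in the blocked fit). Traf2, the adaptor that links IRE1α to kinase signalling, rose by 0.73 ± 0.20 in GFP and 0.78 ± 0.20 in EIF2A (edgeR adjusted p = 0.00759 and 0.00441), from 51.2 ± 5.38 to 85.2 ± 5.42 CPM (SD, n = 4) in GFP. Zbtb8os, the archease cofactor of the RTCB ligase that rejoins Xbp1 mRNA, fell by 0.66 ± 0.12 and 0.68 ± 0.13 (3.19e-04 and 1.97e-04), while Rtcb itself rose by 0.27 ± 0.09 and 0.30 ± 0.09 (0.0258 and 0.0106).

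Of 5 genes that handle ATF6 protein, Txndc12 and Wfs1 fell at 3 h in both constructs, and Pdia5 rose in EIF2A. Wfs1, which encodes wolframin, a regulator of ATF6 turnover, fell by 0.45 ± 0.13 in GFP and 0.69 ± 0.13 in EIF2A (0.0107 and 3.29e-04). Txndc12, an ER thioredoxin-like oxidoreductase, fell by 0.49 ± 0.17 in each (0.0323 and 0.0299). Of 4 other clients of the site-1 and site-2 proteases and their escorts, 2 rose and 1 fell in GFP and 1 rose and 1 fell in EIF2A. Srebf1, a factor of lipid synthesis released by these proteases, rose by 0.49 ± 0.09 and 0.45 ± 0.09 (2.62e-04 and 5.15e-04). Scap, which escorts SREBPs to the Golgi, fell by 0.45 ± 0.11 and 0.56 ± 0.11 (0.00226 and 2.60e-04). Of the 3 further genes Creb3l3, Creb3l4 and Crebzf, 0 passed in GFP and 1, Crebzf, rose in EIF2A by 0.42 ± 0.15 (0.0362). In GFP Crebzf rose in the blocked fit alone, by 0.32 (1.91e-05). Creb3l3 (0.07 ± 0.29 and 0.17 ± 0.29) and Creb3l4 (-0.63 ± 0.51 and 0.39 ± 0.51) were not called by either fit.

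Known targets of the sensors moved in both directions at 3 h. At 1 h, 3 of 10 ATF6 targets rose and 0 fell in GFP (median 0.31), against 8.18% of all genes called. In EIF2A 4 rose and 0 fell (median 0.22), against 10.5%. The blocked fit at 1 h gave 7 up and 1 down in GFP (44.6% of all genes) and 6 up and 2 down in EIF2A (45.3%). Of 8 XBP1 targets 0 were called at 1 h, and the blocked fit gave 2 up and 1 down, and 2 up and 2 down. Of 8 XBP1 targets 0 rose and 1, Edem1, fell at 3 h in each construct, and the blocked fit gave 3 up and 2 down in GFP and 1 up and 4 down in EIF2A. Their median was 0.02 and -0.06. Edem1, a lectin that draws misfolded glycoproteins into degradation, fell by 0.79 ± 0.18 and 0.76 ± 0.18 (adjusted p = 0.00167 and 0.00204), from 184 ± 8.80 to 107 ± 2.02 CPM in GFP. Pdia6, a disulfide isomerase, was at 0.57 ± 0.20 at 1 h and 0.21 ± 0.20 at 3 h in GFP (0.0932 and 0.464; blocked 2.05e-08 and 0.00244). Of 10 ATF6 targets 2 rose at 3 h in GFP, and 2 rose and 1 (Sel1l) fell in EIF2A, with medians of 0.10 and 0.03. The blocked fit gave 5 up and 3 down, and 4 up and 3 down. Herpud1, a membrane protein of ER-associated degradation, rose most among those named, by 1.46 ± 0.15 and 1.39 ± 0.15 (1.97e-07 and 3.09e-07). Hsp90b1, the ER chaperone GRP94, rose by 0.69 ± 0.08 at 1 h and 0.53 ± 0.08 at 3 h in GFP (2.35e-05 and 3.75e-05), and by 0.61 ± 0.08 and 0.40 ± 0.08 in EIF2A.

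Of the PERK arm, Atf4 rose at 3 h by 0.81 ± 0.10 in GFP and 0.65 ± 0.10 in EIF2A and Ddit3, which encodes CHOP, by 2.03 ± 0.28 and 1.70 ± 0.28. Eif2ak3, the PERK kinase itself, was at 0.42 ± 0.24 and 0.53 ± 0.24 (0.190 and 0.0900; blocked 9.53e-05 and 5.98e-06), a size between those of Atf6 and Ern1 in the same fit. Of 6 listed substrates of IRE1-dependent decay, 4 were tested. Bloc1s1, the best known of them, fell at 3 h in GFP by 1.22 ± 0.27 (0.00148) and stood at -0.49 ± 0.27 in EIF2A (0.170; blocked 0.00802). The interaction at 3 h called Bloc1s1 without replicate 1 and no gene with it. Sparc had a mean of 0.0637 to 0.927 CPM by group, too few counts for a fold change to be read.

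Without replicate 1, EIF2A against GFP, 7 of 8 XBP1 targets were lower and 0 higher at 0 h (median -0.48) and likewise at 3 h (median -0.64), where the median of all genes was 0.0013 and -0.019 and 64.8% and 67.6% of all genes were called. With all replicates 0 of the 8 were called at either time (medians -0.27 and -0.30). The interaction at 3 h without replicate 1 called 0 of the 8 XBP1 targets and 4 of the 10 ATF6 targets (Calr, Herpud1, Hspa5 and Sel1l), all with the lower response in EIF2A, against 4.12% of all genes. Atf4 and Ddit3 of the PERK arm were called the same way, and with all replicates no gene was. Between the constructs at 0 h without replicate 1 the ATF6 targets split, with 4 higher and 3 lower (median 0.05), and 0 were called with all replicates. Ern1 and Xbp1 were lower in the same libraries, as given above, and so were Edem1 by 0.44 ± 0.05 and Eif2ak3 by 0.63 ± 0.08 at 0 h (1.66e-07 and 6.31e-07), while Traf2 was higher by 0.60 ± 0.08 (1.61e-06). With all replicates these values were -0.24 ± 0.18, -0.50 ± 0.24 and 0.38 ± 0.20 (0.404, 0.228 and 0.264).

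**Figure D5:**
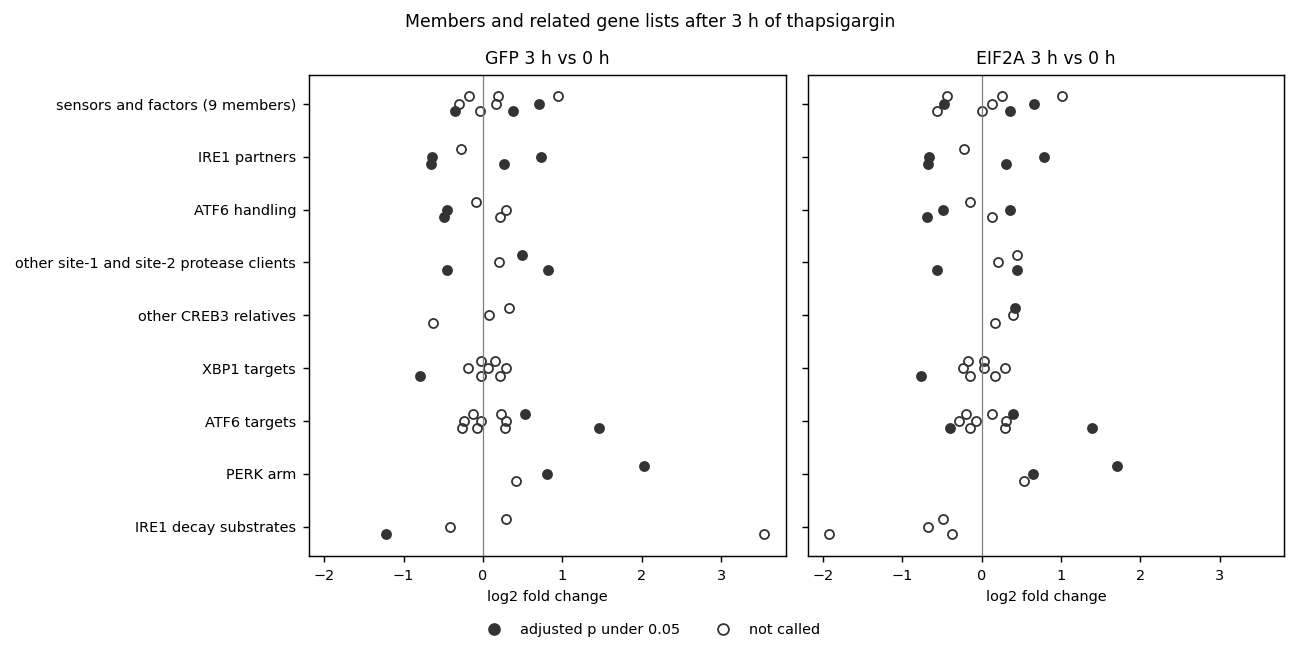
Log2 fold change at 3 h against 0 h in GFP (left) and EIF2A (right) for the 9 genes and 8 lists of related genes, 1 point per tested gene, filled where the adjusted p is under 0.05. Filled points lie on both sides of 0 among the sensors, while both filled points of the PERK arm lie above 0; the far points of the decay substrates are Sparc, which has under 1 CPM on average in each group.

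Promoter sequence was read from RefSeq windows of 250 bases before to 50 after each gene's start (GRCm38.p6), which held 7 of the 9 genes (not Atf6 and Creb3l1). Both strands were searched for the ER stress element ERSE, which is CCAAT, 9 bases of any kind and CCACG and is bound by ATF6 and XBP1 with NF-Y, and for ERSE-II, which is ATTGG, 1 base of any kind and CCACG. Among all 32851 windows 0.119% held ERSE and 0.0365% ERSE-II. Of the 7 sensor genes 0 held either, which says only that these letters are not in these windows. ERSE was present in 5 of 8 ATF6 targets with a window and in 3 of 8 XBP1 targets. The sites of the named targets are shown, as the sequences through which the products of Atf6 and Xbp1 are known to act, with Hspa5, the ER chaperone BiP, as the textbook case. Capitals mark the element, which contains the CCAAT box and the CCACG core, on either strand:
Hspa5 ERSE, chr2:34772017-34772051, plus strand: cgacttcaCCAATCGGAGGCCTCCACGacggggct
Hsp90b1 ERSE, chr10:86705630-86705664, minus strand: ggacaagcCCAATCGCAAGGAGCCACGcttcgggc
Hsp90b1 ERSE reversed, chr10:86705525-86705559, minus strand: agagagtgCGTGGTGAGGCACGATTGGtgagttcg
Pdia6 ERSE, chr12:17266483-17266517, plus strand: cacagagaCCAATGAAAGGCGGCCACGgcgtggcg
Herpud1 ERSE-II, chr8:94386369-94386395, plus strand: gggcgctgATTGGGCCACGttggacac
Hsp90b1, with 2 such sites, and Herpud1 rose at 1 and 3 h in both constructs. No other gene of the lists with a site was called at 3 h without the block. In the blocked fit at 3 h Pdia6 rose (0.21 in GFP and 0.16 in EIF2A), as did Creld2 (0.22 and 0.28). Dnajc3 fell there in both (-0.21 and -0.27), Derl3 in GFP (-0.25), and Calr (-0.29), Syvn1 (-0.19) and Nucb1 (-0.15) in EIF2A. Whether a site went with a rise was not tested. Hspa5 was at 0.43 ± 0.16 in GFP and 0.29 ± 0.16 in EIF2A at 1 h (adjusted p = 0.113 and 0.3), and the blocked fit called it in both (5.07e-06 and 0.000571). It was at 0.29 ± 0.16 in GFP and 0.13 ± 0.16 in EIF2A at 3 h (adjusted p = 0.183 and 0.577), and the blocked fit called it in GFP (0.000273) and not in EIF2A (0.168).

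The genes most like 4 of the sensors over the 24 libraries were ranked by Pearson r of log2 CPM after the mean of each series was subtracted, so that r follows the time course and not the construct. These are descriptions, since the libraries share treatments and series. Ern1 was closest to Gorab, Sf1 and Sin3a (r = 0.99 each), Xbp1 to Fiz1, Pde12 and Arid5a (0.99 each), Atf6 to Rbm33 (0.97), Asap1 and Dennd4a (0.96 each), and Creb3l1 to Lpcat4, Sephs2 and Chd3 (0.84, 0.82 and 0.81). Before subtraction the values of Ern1 were lower, at 0.75, 0.32 and 0.46. Those of Rbm33 and Dennd4a with Atf6 were 0.96 and 0.95. Gorab, for example, went over 3 h from 26.0 ± 0.971 to 53.8 ± 2.15 CPM in GFP, and in EIF2A from 20.6 ± 6.21 to 45.8 ± 4.08 (SD, n = 4).

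By position on GRCm38 the 9 genes lie apart from one another except that Ern1 (chr11:106394650-106487852, minus strand) and Xbp1 (chr11:5520659-5525893, plus strand) share a chromosome. Atf6 lies at chr1:170704674-170867771 (minus), Atf6b at chr17:34647146-34655074 (plus), Mbtps1 at chr8:119508156-119558735 (minus) and Mbtps2 at chrX:157535371-157598715 (minus). Creb3 lies at chr4:43562332-43567060 (plus), Creb3l2 at chr6:37327255-37442146 (minus) and Creb3l1 at chr2:91982328-92024502 (minus). All are protein-coding. The counts are given by gene symbol, and whether they cover exactly the exons of these gene models is not known.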

How the data were processed

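Per the submitters' processing notes, reads were handled with bcl2fastq and STAR against mm10; how reads were counted, and with which annotation and strand setting, is not given in the sources used here. A table deposited by the authors holds a whole-number count for each gene and library, with no normalization. Of the reads in the table, 10.73 to 17.88% fell on a line for no gene and 0.518 to 0.592% on a line for ambiguous reads, and both lines were left out. The share for no gene was 13.29 to 17.88% in EIF2A replicates 2 to 4 and 10.73 to 12.99% in all GFP libraries and EIF2A replicate 1. Groups and replicate numbers came from the sample titles.

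From the counts, CPM was computed on TMM-scaled library sizes. Genes were tested with edgeR 4.0.16 (R 4.3.3): filter on low counts (minimum 10, minimum total 15), robust quasi-likelihood fit of 6 group means over 24 libraries (18 residual degrees of freedom), Benjamini-Hochberg over 13761 genes, called at an adjusted p under 0.05. The script was tested on simulated data. Log2 CPM used a prior count of 2. At the lowest depth 1 CPM is about 10.5 counts, and counting error is only a lower limit of the error. Exonic lengths and positions are from GENCODE M21 (GRCm38, the build of mm10), and 95.5% of genes had a length.

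Replicate numbers were checked for pairing over 10908 genes of mean CPM 5 or more. Within a construct, deviations of same-numbered libraries from their group means correlated at 0.675 to 0.956 in 24 of 24 pairs. Of pairs of different numbers, 36 of 72 were also over 0.1 (-0.902 to 0.840). Replicate 1 stands far from the others, so these values largely reflect it. The construct-by-replicate block is given beside time comparisons where it changes a call. In replicates 2 to 4 alone, 13 of 18 same-numbered pairs were over 0.1 (-0.0525 to 0.682), against 5 of 36 of different numbers. Across constructs 0 of 36 same-numbered pairs were over 0.1 (-0.601 to 7.59e-04), and in replicates 2 to 4 alone 20 of 27 were (-0.0829 to 0.677), against 9 of 54 pairs of different numbers. As not every pair was over 0.1, the numbers were not taken to pair libraries across constructs. Within a construct not every pair of replicates 2 to 4 was over 0.1 either, so the block rests on deviations that include replicate 1.

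Alternatives were DESeq2 1.42.0, RLE size factors, library totals alone, no filter, only the groups compared, the block, and leaving out each replicate number and each library. The genes, lists and tests were chosen with earlier results of these data known. Named genes are the 9 sensors, Eif2a, the 2 members with the smallest p in GFP at 3 h of each list (all where a list has 3), and the 3 most alike genes of Ern1, Xbp1, Atf6 and Creb3l1. Rtcb, Pdia5, Sel1l, Hspa5, Calr, Creld2, Dnajc3, Derl3, Syvn1, Nucb1, Tln1, Gba2 and Yy2 are named besides, chosen after their values or positions were seen.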

Additional observations from a re-analysis of the deposited data

Results flagged for a closer look

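In 18 of 54 sets of 4 libraries (9 genes by 6 groups), the highest or lowest library stood off by more of the group's range than Dixon's 95% critical value, which chance passes in about 1 of 20 sets. Of these, 17 were replicate 1. The replicate 1 values were, for Ern1 in GFP, 22.3, 29.7 and 43.2 CPM at 0, 1 and 3 h, each the lowest, and in EIF2A 49.2, 56.0 and 76.0, each the highest. For Creb3l2 in GFP they were 7.3, 9.3 and 10.1 CPM, the lowest, and for Creb3l1 in GFP 6.0, 5.1 and 5.4, the highest. Xbp1 was lowest in GFP at 0 h (201.9 CPM) and highest in EIF2A at 3 h (396.6). Atf6 was highest in EIF2A at 0 h (98.3 CPM) and 1 h (90.5), and Mbtps1 in EIF2A at 0 h (208.8). The remaining one was Creb3l1 in replicate 4 of EIF2A at 1 h, at 3.1 CPM against 2.0 in the other libraries. Eif2a, the gene on the plasmid, has its reversed order between the constructs in the same replicate.

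The response of Ern1 at 3 h differed between the constructs without replicate 1, by a log2 interaction of 0.62 in edgeR's test. It was larger in proportion in EIF2A in replicates 2 to 4 and smaller in replicate 1.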

How the results depend on the processing

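Over 99 gene and contrast values, 2012 alternative values were computed. Of these, 1826 kept their side of the threshold (142 of them with the other sign and no call on either side). A further 150 newly passed it, 34 no longer did, and 2 changed sign and newly passed it. Both of the last are Creb3l1, EIF2A against GFP at 3 h, at 0.96 without replicate 1 with or without the block (-0.47 to 0.96 over the left-out replicate numbers). With all replicates this difference was not called and was near 0 for its error (-0.09 ± 0.59 with RLE size factors), so no called direction was reversed. With the replicate block, the called of 9 genes (GFP 1 h, 3 h, 3 h against 1 h, then EIF2A) were 5, 7, 4, 7, 7 and 5. The shares of all genes were 44.6%, 67.1%, 49.7%, 45.3%, 66.2% and 52.7%. Without replicate 1 as well, 5, 6, 5, 7, 6 and 5 were called. Of all 13731 genes, 3689, 4857, 3746, 3385, 4635 and 4114 then rose and 3440, 4772, 3709, 3693, 4726 and 3857 fell. Between the constructs, where not every same-numbered pair correlated, the block gave 2 at 1 h and 1 at 3 h. Of all 13761 genes 1419 and 551 were then higher and 1471 and 503 lower. Without replicate 1 as well it gave 7, 8 and 9 at 0, 1 and 3 h. Of all 13731 genes 4739, 4796 and 4837 were then higher and 4879, 5434 and 5196 lower, so these counts say little about the sensors. For the interactions it gave 1 and 2, where 534 and 776 of all genes were higher and 512 and 1179 lower. Leaving out 1 replicate number gave 0 to 3, 1 to 6, 0 to 4, 0 to 7, 1 to 6 and 0 to 4 for the time contrasts, 0 to 7 for each construct contrast and 0 to 1 for the interaction at 3 h, the highest without replicate 1. For the time contrasts 2917, 4422, 2878, 2772, 4280 and 3506 of all 13731 genes then rose and 2496, 4226, 2920, 2990, 4318 and 3234 fell. For the construct contrasts 64.8%, 70.0% and 67.6% of all genes were then called, and for the interaction at 3 h 4.12%. Without the filter GFP at 3 h had 1, where 2427 of all 19784 genes rose and 1824 fell. Fitting only the groups compared gave 6 there (2939 up and 2687 down of all 13368 genes). It gave 1 for GFP 3 h against 1 h (1118 up and 1000 down of 13368) and 0 for EIF2A at 1 h (325 up and 96 down of 12754). For EIF2A 3 h against 1 h library totals gave 2 (2604 up and 349 down of 13761) and DESeq2 1 (1235 up and 1199 down of 13622). The cause was not tested. Over all genes, GFP at 3 h had 4543 called and 9234 with the block. Library totals alone moved the split of rises and falls there from 2538 and 2005 to 3361 and 1345. DESeq2 gave no adjusted p for 13 values, 11 of them Ern1. Of 54 group levels, 3 moved by over 1 SD under another scaling. Depth limits Creb3l1 most, at 18 to 105 counts.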
